A study of Mus musculus with 35 samples.

Results

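The pyruvate dehydrogenase complex (PDC) and the enzymes that switch it on and off were followed at the mRNA level in bone marrow-derived macrophages (BMDMs). The 10 genes were chosen by name as the gene identifiers that map to Pdk1, Pdk2, Pdk3 and Pdk4 (kinases), Pdp1 and Pdp2 (catalytic subunits of the phosphatases), and Pdha1, Pdhb, Dlat and Pdhx (subunits of the complex). They are 10 of the 47069 gene identifiers in each library, and each symbol matched 1 identifier. BMDMs came from C57BL/6 mice that were wild-type (WT) or labelled AMPKa1-/-, and were grown from marrow in medium with L929-cell supernatant, a source of macrophage growth factor. Treatments lasted 24 h and were vehicle (DMSO), 100 nM dexamethasone (Dex, a synthetic glucocorticoid), 100 ng/ml lipopolysaccharide (LPS, from the bacterial outer membrane), LPS + Dex, 1 µg/ml damage-associated molecular patterns (DAMPs), or DAMPs + Dex. Each treatment had 3 replicates per genotype, except WT LPS, where replicates 2 and 3 were used and replicate 1 was not analysed here, giving 17 WT libraries and 18 labelled AMPKa1-/-. The study states that its N values are cultures from individual mice, but the labels do not tie a library to a mouse, and p-values measure the spread between these libraries.

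PDC turns pyruvate from glycolysis into acetyl-CoA inside mitochondria, which links glycolysis to the TCA cycle. Pyruvate dehydrogenase kinases phosphorylate the E1 alpha subunit, encoded by Pdha1, and switch the complex off, whereas the phosphatases remove the phosphate and switch it on again. The kinases differ in tissue distribution and in what induces them: Pdk1 is a known target of hypoxia-inducible factor, and Pdk4 is a known target of fasting and of glucocorticoids in muscle and liver. Activated macrophages are known for strong glycolysis and for a rewired TCA cycle, so that the entry of pyruvate is a much studied step. The values reported are mRNA levels and say nothing of phosphorylation or enzyme activity.

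Levels are given in FPKM (fragments for each kilobase of a gene, relative to all fragments of its library), and per-length values may be compared between genes. Library totals read from the smallest steps of the FPKM values were 15837203 to 31955298 fragments, so that 1 fragment on a 1 kb gene was worth 0.0313 to 0.0631 FPKM. Changes are log2 fold changes of FPKM + 1 (low genes are understated on this scale), with the standard error (SE). A gene was called when its Benjamini-Hochberg adjusted p from limma, over all 11354 genes with a mean of at least 1 FPKM, was under 0.05. Pdk4 lay below that mean, which left 9 of the 10 genes, and its test without the filter is given with its values.

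The gene named in the AMPKa1-/- label was checked first. Prkaa1 (ENSMUSG00000050697, chromosome 15), which encodes AMPKa1, was at 15.9, 11.8 and 15.3 FPKM in the WT vehicle libraries and at 14.8, 16.5 and 15.4 FPKM in those labelled AMPKa1-/-. Over all 35 libraries Prkaa1 ranged from 8.59 to 26.1 FPKM, and the genotypes overlapped. The log2 difference of Prkaa1 in vehicle was 0.12 (95% interval -0.36 to 0.60, adjusted p = 1.00), and Prkaa1 was not called in any of the 6 treatments. A gene-level value does not show which exons the reads cover, so these data do not show the deletion, and the libraries are called by their label throughout. Prkaa2, which encodes the other catalytic subunit, reached at most 0.130 FPKM.

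The Dex and LPS labels matched their marker genes, and no marker list was set for DAMPs. Fkbp5, a glucocorticoid-induced gene, was at 1.60, 1.91 and 2.23 FPKM in WT vehicle and at 321, 355 and 346 FPKM in WT Dex. All 6 genes of the Dex list (Tsc22d3, Fkbp5, Per1, Zbtb16, Klf9 and Dusp1) rose with Dex alone and with Dex on LPS in both genotypes. All 6 genes of the LPS list (Il1b, Nos2, Cxcl10, Tnf, Il6 and Acod1) rose with LPS and fell when Dex was added to LPS, in both genotypes. The macrophage markers Adgre1 (at least 474 FPKM) and Csf1r (at least 197 FPKM) were high in every library. The Y-linked gene Ddx3y was at 13.6 FPKM or more and Xist at 0.0283 FPKM or less in every library, so the X-linked Pdha1 and Pdk3 were compared between libraries of one sex pattern. After the data were seen, 3 libraries were set down as standing apart within their groups: replicate 3 of LPS and of LPS + Dex labelled AMPKa1-/-, for low Pdk1 and Ldha, and replicate 3 of WT LPS + Dex, for low Pdha1 and the highest share of Saa3.

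Of the kinase genes, Pdk2 fell and Pdk3 rose with LPS in both genotypes, and the stretches upstream of their starts are shown for that reason. Both genes lie on the minus strand, and the sequences run 5′ to 3′ from position -250 to -31, counted back from the RefSeq start (GRCm38.p6). The Pdk2 stretch is chr11:95041402-95041621 and the Pdk3 stretch is chrX:93832181-93832400, whose last bases lie in the first exon of the GENCODE model of Pdk3. Capitals mark matches on either strand to ACGTG, the core of the hypoxia response element, and to a kappaB core, here GGGA and CC with any 4 bases between them.
Pdk2: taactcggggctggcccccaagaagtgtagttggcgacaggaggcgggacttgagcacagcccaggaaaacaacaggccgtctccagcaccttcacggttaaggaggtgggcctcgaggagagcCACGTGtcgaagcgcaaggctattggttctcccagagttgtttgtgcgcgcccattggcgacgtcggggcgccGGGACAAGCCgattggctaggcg
Pdk3: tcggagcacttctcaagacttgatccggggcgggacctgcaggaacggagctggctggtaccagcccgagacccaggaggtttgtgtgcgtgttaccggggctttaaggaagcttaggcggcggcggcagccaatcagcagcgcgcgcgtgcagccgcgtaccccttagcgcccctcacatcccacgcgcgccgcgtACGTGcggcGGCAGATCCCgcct
Each stretch held both motifs. The window of Pdp2, which was called in no treatment contrast except under quantile normalization, held both as well, with ACGTG read on both strands from -219 to -214 and kappaB cores from -230 to -221 and -149 to -140. Pdk2 has another RefSeq window, chr11:95040876-95041125, with no match to any motif searched, and the window shown is the one farther upstream. In Pdk2 the ACGTG core was read on both strands from -126 to -121, as the overlapping matches of one CACGTG, and the kappaB core lay from -53 to -44. In Pdk3 the ACGTG core lay from -53 to -49 and the kappaB core from -44 to -35 on the other strand. Both are upstream of the RefSeq start only. In the GENCODE model of Pdk3 the kappaB match lies within the first exon, and the ACGTG match crosses the start of that exon. Of all 32817 RefSeq windows of 250 upstream bases, 16.6% held ACGTG and 17.6% held this kappaB core, so that either match is common. A glucocorticoid response element, here GNACA and TGTNC (N is any base) with any 3 bases between them, was in 0.387% of the windows and GTAAACA, a FOXO site, in 3.16%, and neither was in the 11 windows of the 9 members that had one. A match is a description of the letters and not a site of binding.

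Which kinases the cells expressed was asked first. In WT vehicle cells Pdk1 made up 50.6% ± 5.86 (SD, n = 3) of the summed kinase FPKM, Pdk2 32.4% ± 5.47 and Pdk3 16.9% ± 1.06, and Pdk4 was close to 0. With Dex the order changed, and Pdk2 made up 50.6% ± 3.79 and Pdk1 25.7% ± 3.29 (n = 3). With LPS the Pdk2 share was 7.13% ± 0.263 and the Pdk3 share 43.1% ± 0.830 (n = 2), and with LPS + Dex they were 26.0% ± 4.98 and 28.7% ± 2.80 (n = 3). The libraries labelled AMPKa1-/- gave Pdk2 shares of 32.8% ± 3.69 in vehicle, 53.6% ± 4.40 in Dex, 8.24% ± 2.78 in LPS and 32.5% ± 12.4 in LPS + Dex (n = 3 each). The summed kinase level was 59.3 ± 8.01 FPKM in WT vehicle, 58.5 ± 4.73 in Dex, 52.6 ± 2.75 in LPS and 50.6 ± 6.86 in LPS + Dex. Labelled AMPKa1-/-, the sum was 60.6 ± 5.09 FPKM in vehicle, 70.8 ± 3.57 in Dex, 43.2 ± 15.4 in LPS and 52.3 ± 10.6 in LPS + Dex. These shares are descriptions of summed levels, rest on the gene lengths that the authors used, and were not tested.

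**Figure D1:**
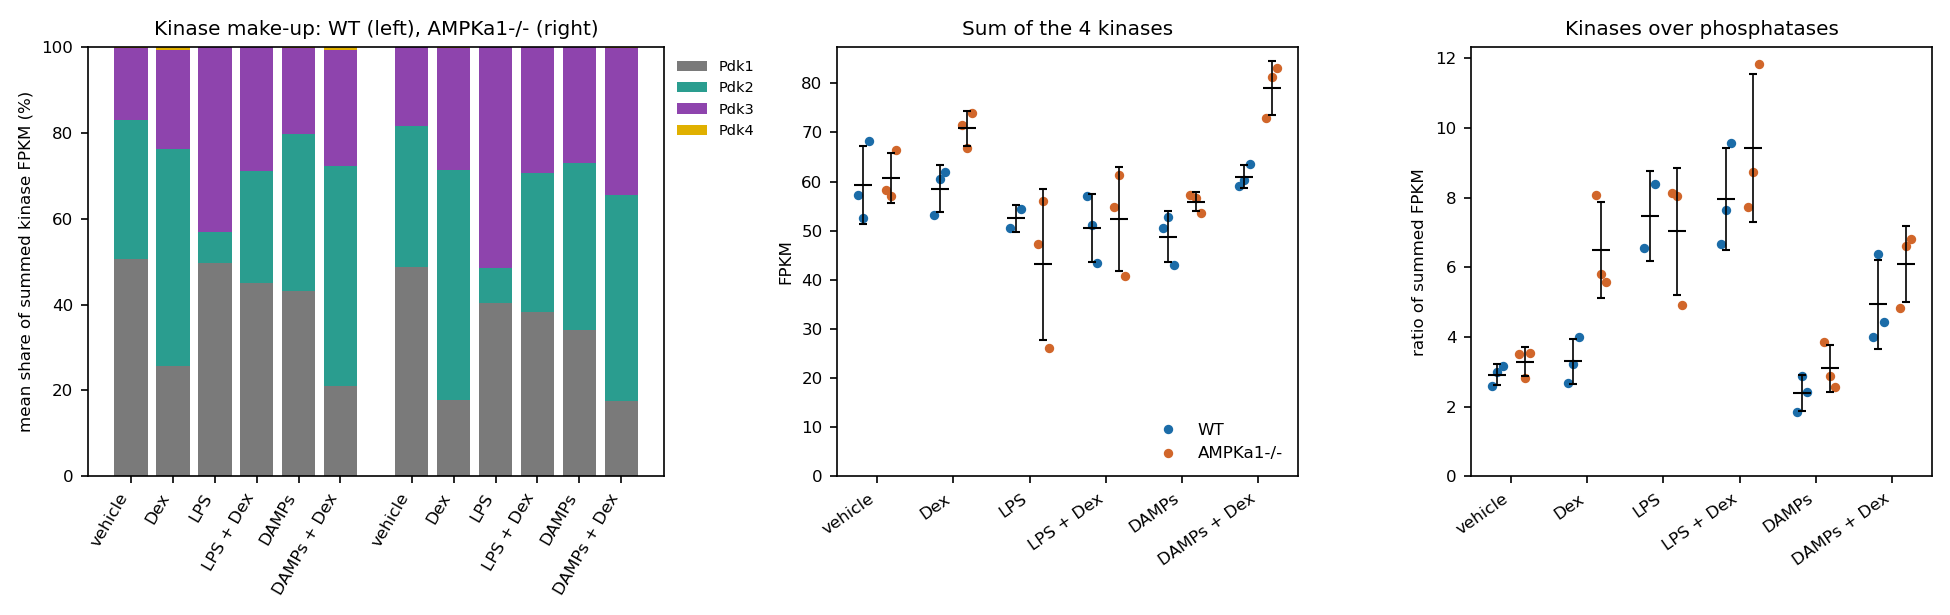
Left, the mean share (%) of each kinase in the summed kinase FPKM for the 6 treatments in WT and in the libraries labelled AMPKa1-/-. Middle, the summed FPKM of the 4 kinases, and right, the ratio of summed kinase to summed phosphatase FPKM, with 1 point per library and the mean ± SD: the Pdk2 share is smallest with LPS, and the ratio is higher in each LPS library than in each vehicle library.

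Pdk2 (ENSMUSG00000038967, chr11:95026258-95041354, minus strand), a kinase found in most tissues, was called in each treatment contrast except DAMPs against vehicle. It was at 17.1, 20.3 and 19.4 FPKM in WT vehicle, at 24.6, 32.5 and 32.0 in Dex, at 3.51 and 3.99 in LPS, and at 11.6, 14.7 and 12.6 in LPS + Dex. The 4 groups did not overlap: LPS was lowest, LPS + Dex lay between LPS and vehicle, and Dex was highest. LPS lowered Pdk2 by a log2 fold change of -2.07 (SE 0.19, adjusted p = 2.55e-10), a 4.2-fold fall. LPS + Dex against LPS gave a 2.93-fold rise (log2 1.55, SE 0.19, adjusted p = 1.41e-07), and Dex against vehicle a 1.53-fold rise (log2 0.61, SE 0.17, adjusted p = 0.00637). LPS against vehicle and LPS + Dex against LPS share the LPS libraries, so an error in those libraries enters both with opposite sign.

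The libraries labelled AMPKa1-/- showed the same order for Pdk2. It was at 21.3, 16.7 and 21.6 FPKM in vehicle, 41.6, 33.0 and 39.5 in Dex, 3.84, 3.09 and 2.90 in LPS, and 15.0, 14.5 and 19.0 in LPS + Dex, with 1 LPS + Dex library above the lowest vehicle library. Pdk2 fell 4.87-fold with LPS (log2 -2.28, SE 0.17, adjusted p = 2.60e-12), rose 4.0-fold with Dex on LPS (log2 2.0, SE 0.17, adjusted p = 1.26e-10) and rose 1.87-fold with Dex alone (log2 0.91, SE 0.17, adjusted p = 0.000140). All these calls of Pdk2 remained under every alternative run.

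Pdk3 (ENSMUSG00000035232, chrX:93764607-93832201, minus strand), the X-linked kinase, moved the other way with LPS. It was at 10.2, 9.0 and 10.7 FPKM in WT vehicle and at 21.5 and 23.8 in WT LPS, a 2.16-fold rise (log2 1.11, SE 0.20, adjusted p = 3.21e-05). With LPS + Dex it was at 16.4, 13.3 and 13.7 FPKM, between both groups, and the log2 change against LPS was -0.62 (SE 0.20, adjusted p = 0.0181). That fall was not called when either WT LPS library (adjusted p = 0.0557 without replicate 2 and 0.127 without replicate 3) or WT LPS + Dex replicate 2 (adjusted p = 0.0609) was left out. In the libraries labelled AMPKa1-/-, Pdk3 was at 12.3, 11.6 and 9.10 FPKM in vehicle, 24.9, 23.5 and 15.5 in LPS, and 17.5, 18.1 and 10.8 in LPS + Dex. Replicate 3 was the lowest of each of these groups. Pdk3 rose with LPS there (log2 0.88, SE 0.18, adjusted p = 0.000129), and the change with LPS + Dex was -0.45 (SE 0.18, adjusted p = 0.0530). It was called with the replicate number as a block (adjusted p = 0.0210), and without LPS replicate 3 (log2 -0.65, adjusted p = 0.00783), LPS + Dex replicate 1 (-0.55, adjusted p = 0.0379) or LPS + Dex replicate 2 (-0.57, adjusted p = 0.0280), and with a mean of at least 5 FPKM (adjusted p = 0.0485). Without LPS + Dex replicate 3 it was -0.22 (adjusted p = 0.377). The block spanned all treatments of a genotype. Same-numbered LPS and LPS + Dex libraries labelled AMPKa1-/- deviated together (correlations 0.373, 0.375 and 0.356). Those of DAMPs and DAMPs + Dex did not all do so (-0.494, 0.125 and -0.165), so the pairing backs the block only in part.

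The ratio of Pdk2 to Pdk3 within a library does not depend on a scaling factor of that library. The pair was chosen because it moved apart with LPS, so the ratio is a description of the same values and adds no support to their changes. Pdk2 over Pdk3 was 1.92 ± 0.300 in WT vehicle (n = 3), 0.165 ± 0.00293 in LPS (n = 2) and 0.912 ± 0.200 in LPS + Dex (n = 3). Labelled AMPKa1-/-, it was 1.85 ± 0.483, 0.157 ± 0.0276 and 1.14 ± 0.535 (n = 3 each). The LPS libraries lay below the vehicle and LPS + Dex libraries in both genotypes.

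Pdk1 (ENSMUSG00000006494, chr2:71873224-71903858, plus strand), the kinase with the highest level in vehicle, fell with Dex alone. It was at 29.7, 23.2 and 37.9 FPKM in WT vehicle and at 14.4, 17.0 and 13.6 in WT Dex, without overlap, a 1.93-fold fall (log2 -0.95, SE 0.30, adjusted p = 0.0190). Labelled AMPKa1-/-, it was at 24.6, 28.7 and 35.7 FPKM in vehicle and at 13.3, 11.1 and 13.4 in Dex (log2 -1.16, SE 0.30, adjusted p = 0.00467). The WT call was lost when WT Dex replicate 1 (adjusted p = 0.0520), WT Dex replicate 3 (0.0561) or WT vehicle replicate 3 (0.0891) was left out. In WT LPS Pdk1 was at 25.6 and 26.7 FPKM and in LPS + Dex at 29.1, 23.2 and 17.0, and neither LPS (log2 -0.18, 95% interval -0.88 to 0.52) nor Dex on LPS (log2 -0.20, -0.90 to 0.49) was called.

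The libraries labelled AMPKa1-/- varied widely in Pdk1 once LPS was present. Pdk1 was at 18.5, 29.4 and 7.71 FPKM in LPS and at 22.4, 28.8 and 10.9 in LPS + Dex, and replicate 3 was the lowest of both groups. The fall of Pdk1 with LPS (log2 -0.81, SE 0.30, adjusted p = 0.0218) was not called without LPS replicate 3 (log2 -0.32, adjusted p = 0.319) or without vehicle replicate 3 (adjusted p = 0.0910). In the same LPS replicate 3, Ldha was at 813 FPKM against 1707 and 2140 in the other two, and the part of that library in the result was not tested further.

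Pdk4 (ENSMUSG00000019577, chr6:5483351-5496309, minus strand), the kinase best known as a glucocorticoid target, was close to the detection limit. Its FPKM values were whole multiples of one step in each library (within 3.18e-07 fragments), and with 1 step taken as 1 fragment they were read as fragments. That reading amounts to a gene length of 1490 bases, whereas the GENCODE exons of Pdk4 cover 3511 bases, at which the numbers would be larger and not whole. The length that the authors used is not given in the sources used here, and the fragment numbers and the limit drawn from them rest on this reading. WT vehicle held 6, 1 and 2 fragments, WT Dex 9, 9 and 12, WT DAMPs + Dex 9, 8 and 35, and WT LPS 0 and 0. Labelled AMPKa1-/-, vehicle held 1, 3 and 2 fragments, Dex 5, 5 and 3, DAMPs + Dex 9, 3 and 3, and LPS 0 in all 3. Dex libraries of WT were thus above vehicle libraries, at 0.326 to 0.426 FPKM against 0.0399 to 0.219, and even these levels were far under those of the other kinases. A count of 0 over both WT LPS libraries allows up to 3 fragments, or 0.0447 FPKM, which covers counting error only. The pooled level of Pdk4 in WT Dex, 0.377 FPKM, was 8.45-fold that limit. The counting error of the Dex libraries is not in this value, so it is no lower bound. In LPS + Dex the WT libraries held 1, 0 and 3 fragments. Without the filter on low values, limma called Pdk4 in 3 comparisons, on a scale that understates changes at this level: it was higher in WT with Dex against vehicle (log2 0.32, SE 0.08, adjusted p = 0.00471) and with DAMPs + Dex against DAMPs (0.44, SE 0.08, adjusted p = 0.000147), and lower labelled AMPKa1-/- than in WT with Dex (-0.27, SE 0.08, adjusted p = 0.0268). Labelled AMPKa1-/-, the changes of Pdk4 in those treatment contrasts were 0.10 (adjusted p = 0.528) and 0.20 (adjusted p = 0.0972), and the difference from WT was called in neither (adjusted p = 0.358 and 1).

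**Figure D2:**
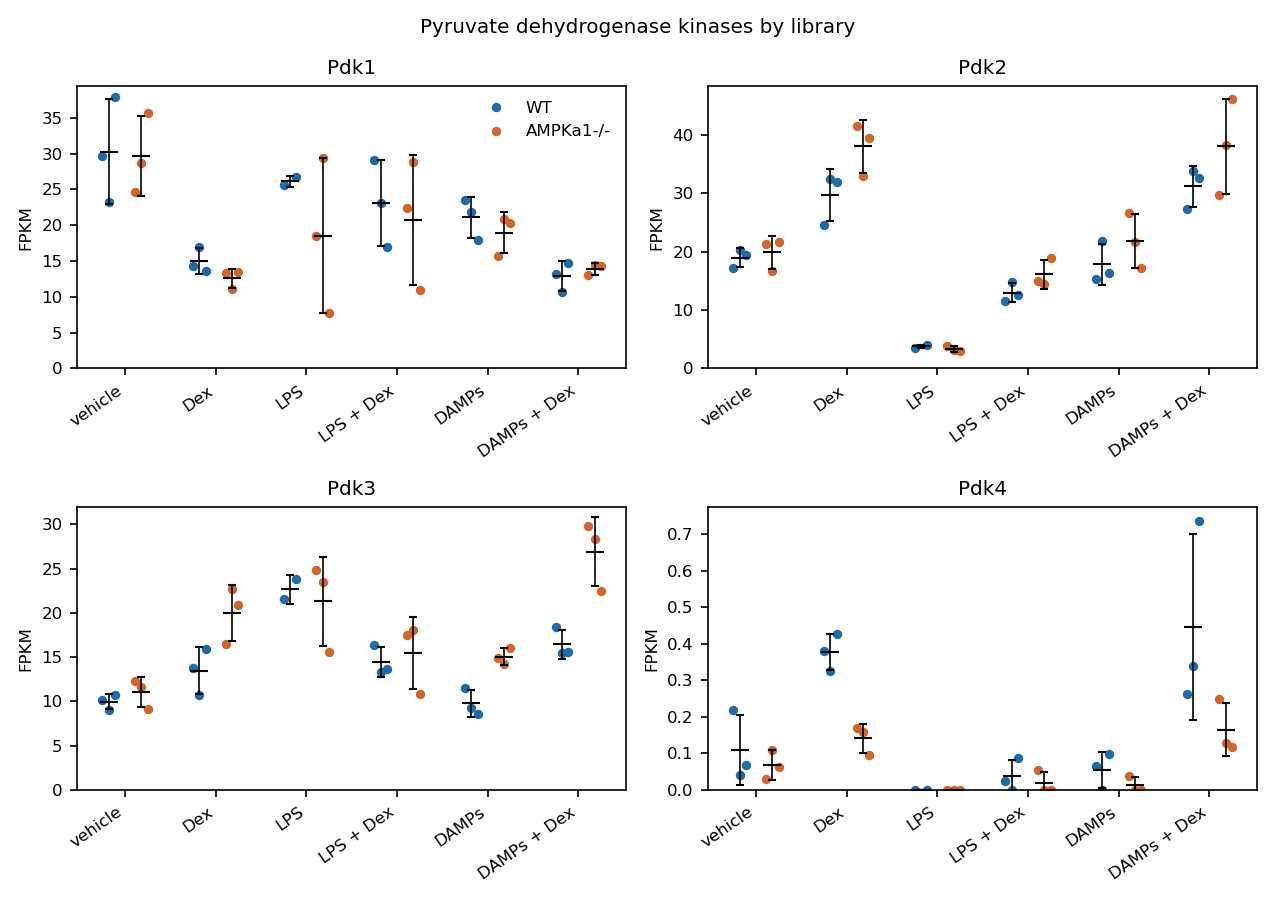
FPKM of Pdk1, Pdk2, Pdk3 and Pdk4 (y axes start at 0 and differ in scale) by treatment, with 1 point per library, WT in blue, libraries labelled AMPKa1-/- in orange, and the mean ± SD in black. Pdk2 is lowest and Pdk3 raised with LPS, Pdk1 is low in the Dex and DAMPs + Dex groups, and Pdk4 reaches at most 0.735 FPKM.

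The phosphatase gene Pdp1 (ENSMUSG00000049225, chr4:11958184-11966452, minus strand), which encodes the calcium-stimulated catalytic subunit, fell with LPS, and its level with LPS + Dex was not called different from LPS. It was at 19.5, 15.2 and 18.7 FPKM in WT vehicle, 5.22 and 4.25 in LPS, and 5.11, 4.43 and 3.0 in LPS + Dex. The log2 change with LPS was -1.71 (SE 0.22, adjusted p = 2.44e-07), a 3.27-fold fall. LPS + Dex against LPS gave -0.16 (95% interval -0.63 to 0.30, adjusted p = 0.625). Labelled AMPKa1-/-, Pdp1 was at 14.4, 17.8 and 16.7 FPKM in vehicle, 3.64, 4.13 and 3.67 in LPS and 4.81, 4.69 and 2.45 in LPS + Dex, a 3.58-fold fall with LPS (log2 -1.84, SE 0.20, adjusted p = 6.69e-09) and 0.01 with Dex on LPS (-0.40 to 0.42).

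Dex on DAMPs lowered Pdp1. WT DAMPs libraries were at 23.3, 15.7 and 15.6 FPKM of Pdp1 and WT DAMPs + Dex libraries at 11.8, 7.29 and 11.3, with no overlap (log2 -0.79, SE 0.20, adjusted p = 0.00399). Without WT DAMPs + Dex replicate 2, the adjusted p of Pdp1 was 0.0514. Dex alone gave -0.29 in WT (95% interval -0.71 to 0.12, adjusted p = 0.269) and -0.72 labelled AMPKa1-/- (SE 0.20, adjusted p = 0.00756). That call was lost without Dex replicate 1 (adjusted p = 0.0583).

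Pdp2 (ENSMUSG00000048371, chr8:104591451-104599026, plus strand), the other phosphatase gene, was weakly expressed at 0.995 to 4.30 FPKM over all libraries. It was called in none of the 10 treatment contrasts, except under quantile normalization in LPS against vehicle labelled AMPKa1-/- (log2 0.43, adjusted p = 0.0276). In LPS against vehicle its log2 change was -0.09 in WT (95% interval -0.59 to 0.42) and -0.02 labelled AMPKa1-/- (-0.47 to 0.43). The sum of both phosphatases therefore followed Pdp1, at 20.4 ± 2.44 FPKM in WT vehicle (n = 3), 7.10 ± 0.861 in LPS (n = 2) and 6.60 ± 2.01 in LPS + Dex (n = 3). The ratio of summed kinase to summed phosphatase FPKM was 2.92 ± 0.301 in WT vehicle, 3.30 ± 0.659 in Dex, 7.48 ± 1.29 in LPS and 7.96 ± 1.47 in LPS + Dex. Labelled AMPKa1-/-, it was 3.29 ± 0.414, 6.49 ± 1.39, 7.03 ± 1.82 and 9.43 ± 2.13, and it is a description of mRNA with no test.

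The subunit genes that were called in a treatment contrast rose. Pdhb (ENSMUSG00000021748, chr14:8165996-8173025, minus strand), the E1 beta subunit, had the highest level of the 10 genes, at 53.3 to 115 FPKM. It was at 62.1, 56.4 and 64.3 FPKM in WT vehicle, 76.7 and 74.1 in LPS, and 115, 108 and 84.5 in LPS + Dex, and these groups did not overlap. Pdhb rose 1.23-fold with LPS (log2 0.30, SE 0.11, adjusted p = 0.0174) and 1.34-fold with Dex on LPS (log2 0.43, SE 0.11, adjusted p = 0.00242), which was not called in a fit of only the groups compared (adjusted p = 0.1496). Labelled AMPKa1-/-, the log2 changes of Pdhb were 0.47 (SE 0.10, adjusted p = 0.000116) and 0.36 (SE 0.10, adjusted p = 0.00383). The WT rise of Pdhb with LPS was not called without either WT LPS library (adjusted p = 0.0999 without replicate 2 and 0.0528 without replicate 3) or WT vehicle replicate 2 (adjusted p = 0.0746).

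Dlat (ENSMUSG00000000168, chr9:50634633-50659780, minus strand), the E2 acetyltransferase that forms the core of the complex, was at 39.6, 34.6 and 40.4 FPKM in WT vehicle, 54.5 and 45.2 in LPS, and 80.6, 70.2 and 51.1 in LPS + Dex. The log2 change with Dex on LPS was 0.41 in WT (SE 0.17, adjusted p = 0.0622) and 0.55 labelled AMPKa1-/- (SE 0.15, adjusted p = 0.00458). In the latter, Dlat was at 55.1, 49.7 and 47.5 FPKM in LPS and 76.4, 83.0 and 65.1 in LPS + Dex, without overlap. Pdha1 (ENSMUSG00000031299, chrX:160122209-160138413, minus strand), the E1 alpha subunit that the kinases phosphorylate, was at 43.7 and 41.3 FPKM in WT LPS and 83.9, 63.4 and 37.6 in WT LPS + Dex. Replicate 3 of that group was below both LPS libraries, and the change of Pdha1 was not called (log2 0.45, 95% interval -0.05 to 0.96, adjusted p = 0.164). Labelled AMPKa1-/-, Pdha1 changed by 0.42 (adjusted p = 0.137), and by 0.64 without LPS + Dex replicate 3 (adjusted p = 0.0343). Without WT LPS + Dex replicate 3, both Pdha1 (log2 0.76, adjusted p = 0.0106) and Dlat (log2 0.59, adjusted p = 0.00641) were called. Both were also called in WT with libraries centred on one median (Pdha1 0.53, adjusted p = 0.0319, and Dlat 0.48, adjusted p = 0.00290) and with quantile normalization (0.55, adjusted p = 0.0490, and 0.49, adjusted p = 0.00975), as was Pdha1 labelled AMPKa1-/- (0.43, adjusted p = 0.0452, and 0.50, adjusted p = 0.0411). The WT replicate 3 library also held the largest share of its FPKM sum in Saa3, an acute-phase gene, at 24.0%. That share was high in every LPS + Dex library. It was 16.0% and 18.1% in the other WT libraries and 16.5%, 17.1% and 21.5% labelled AMPKa1-/-. With LPS it was 7.12% and 7.20% in WT and 5.51%, 7.58% and 3.74% labelled AMPKa1-/-. LPS + Dex against LPS thus compares libraries of unlike composition, and the part of this in the changes was not tested.

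Pdhx (ENSMUSG00000010914, chr2:103021075-103073513, minus strand), the E3-binding protein, was at 10.7, 9.78 and 12.4 FPKM in WT vehicle and at 14.1 and 13.5 in LPS (log2 0.31, SE 0.12, adjusted p = 0.0256). Labelled AMPKa1-/-, it rose as well (log2 0.38, SE 0.10, adjusted p = 0.00219), at 11.8, 9.63 and 11.2 FPKM in vehicle and 15.0, 14.5 and 13.9 in LPS. The WT call was lost without vehicle replicate 1 or 2 or LPS replicate 2 or 3, with adjusted p of 0.0578, 0.117, 0.131 and 0.0667 for Pdhx. Dex on LPS gave 0.15 in WT (95% interval -0.09 to 0.39) and 0.10 labelled AMPKa1-/- (-0.12 to 0.31), and neither was called.

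With Dex alone no subunit gene was called in the fit reported. The log2 changes in WT were 0.34 for Dlat (95% interval 0.03 to 0.65), 0.34 for Pdha1 (-0.11 to 0.79), 0.14 for Pdhx and 0.13 for Pdhb, and labelled AMPKa1-/- they lay between -0.12 (Pdha1) and 0.15 (Pdhb). Dlat in WT was called in a fit of only the groups compared (0.34, adjusted p = 0.0321). Pdhb labelled AMPKa1-/- was called with libraries centred on one median (0.24, adjusted p = 0.0187). With DAMPs against vehicle the subunit genes lay between -0.08 (Pdhx) and 0.04 (Dlat) in WT and between -0.13 (Dlat) and 0.01 (Pdhb) labelled AMPKa1-/-. With DAMPs + Dex against DAMPs they lay between 0.13 (Pdhx) and 0.26 (Pdha1) in WT and between 0.17 (Pdhx) and 0.40 (Pdha1) labelled AMPKa1-/-, and none was called. Under quantile normalization, Pdhb labelled AMPKa1-/- was called in that contrast (0.24, adjusted p = 0.0377).

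**Figure D3:**
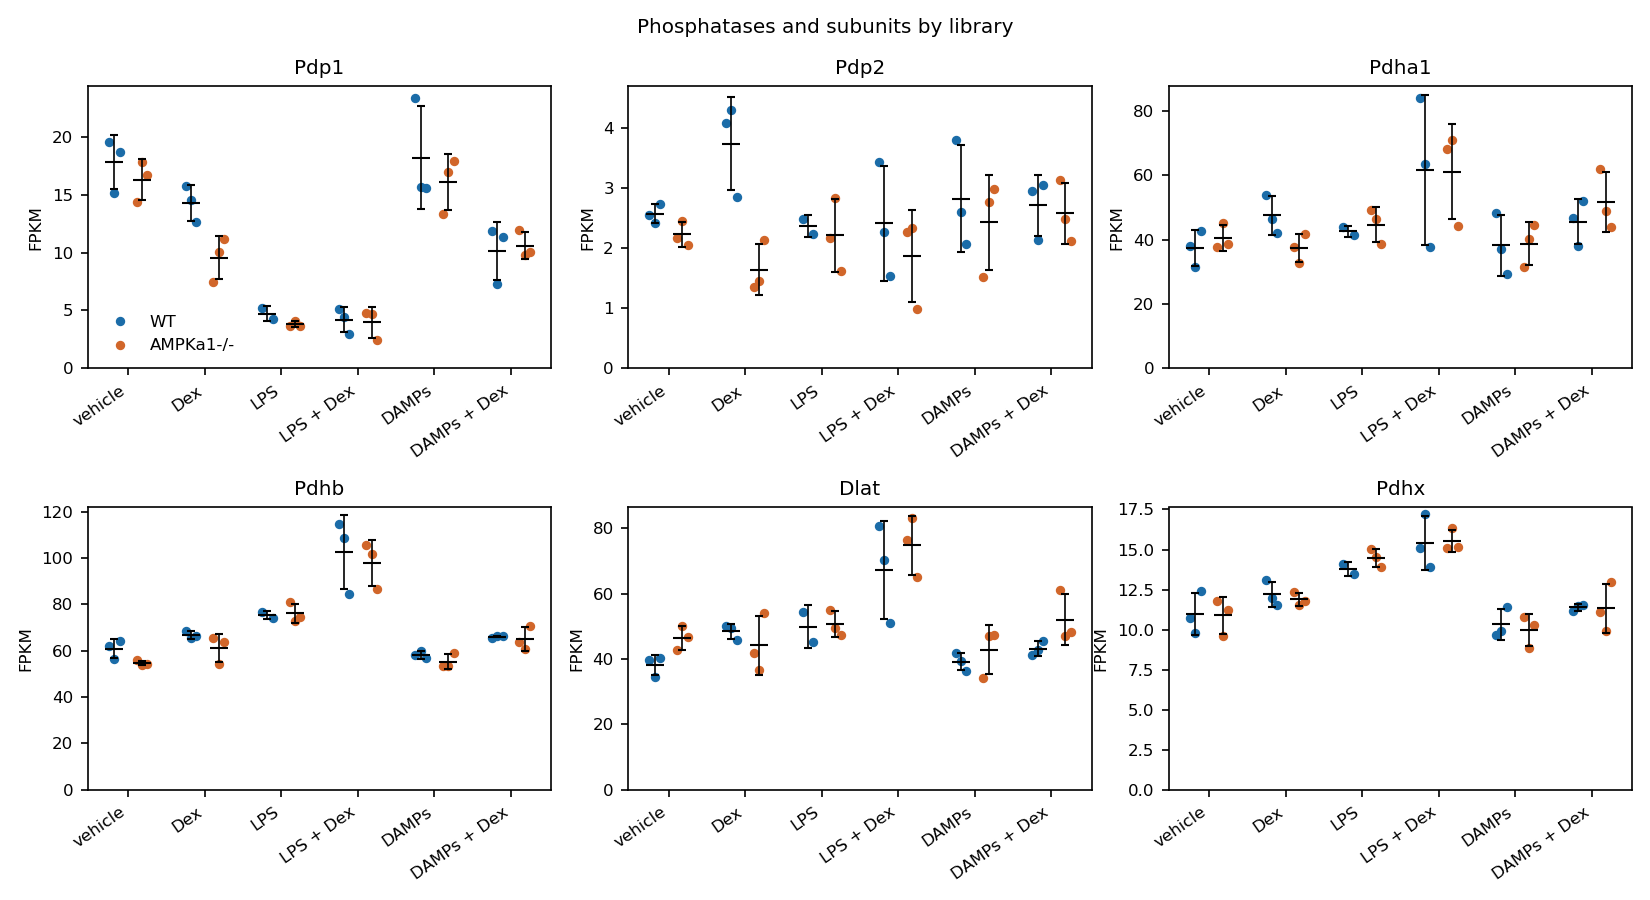
FPKM of Pdp1, Pdp2, Pdha1, Pdhb, Dlat and Pdhx (y axes start at 0 and differ in scale) by treatment, with 1 point per library, WT in blue, libraries labelled AMPKa1-/- in orange, and the mean ± SD in black. Pdp1 is low in every library with LPS, and Pdhb reaches its highest values, 84.5 to 115 FPKM in WT, with LPS + Dex.

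Counted over the members, LPS against vehicle called 5 of the 9 genes tested in WT (3 rose, 2 fell) and 6 labelled AMPKa1-/- (3 rose, 3 fell). In the same comparisons 55.7% and 64.3% of all genes were called, so that these counts are near the background and show nothing about the members as a group. LPS + Dex against LPS called 3 of 9 in WT (Pdk2 and Pdhb rose, Pdk3 fell) and 3 of 9 labelled AMPKa1-/- (Pdk2, Pdhb and Dlat rose), where 34.1% and 37.7% of all genes were called. Dex against vehicle called 2 of 9 in WT (Pdk2 rose, Pdk1 fell) and 4 of 9 labelled AMPKa1-/- (Pdk2 and Pdk3 rose, Pdk1 and Pdp1 fell), against 30.9% and 27.9%.

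Library scaling mattered for LPS. The median log2 change of all genes tested was -0.19 in WT and -0.30 labelled AMPKa1-/-, so that a gene at 0 stood above the median gene. With all libraries centred on one median, the WT changes were -1.92 for Pdk2, 1.26 for Pdk3 and -1.56 for Pdp1, and Dlat was called at 0.52 (adjusted p = 0.000754). Labelled AMPKa1-/-, centring gave -2.01 for Pdk2, 1.15 for Pdk3 and -1.56 for Pdp1, called Dlat (0.40, adjusted p = 0.00289) and Pdha1 (0.41, adjusted p = 0.0404), and lost the call of Pdk1 (-0.53, adjusted p = 0.0863). Under either scaling Pdk2 and Pdp1 fell and Pdk3 rose with LPS in both genotypes.

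For DAMPs alone no member passed the test. DAMPs against vehicle called 0 of 9 in both genotypes (2.01% of all genes in WT and 4.13% labelled AMPKa1-/-), and at an unadjusted p under 0.05 limma gave 1099 and 1509 genes. The WT changes of Pdk2 (-0.10, 95% interval -0.44 to 0.25) and Pdp1 (0.01, -0.40 to 0.43) had intervals that did not reach the changes with LPS. Labelled AMPKa1-/-, Pdk3 changed by 0.43 (95% interval 0.06 to 0.80, adjusted p = 0.259) and Pdk1 by -0.62 (-1.24 to 0.01, adjusted p = 0.389). DAMPs + Dex against DAMPs called 3 of 9 in each genotype, Pdk2 and Pdk3 higher and Pdp1 lower, where 24.3% of all genes were called in WT and 25.3% labelled AMPKa1-/-. Pdk1 changed by -0.67 in WT (adjusted p = 0.112) and by -0.41 labelled AMPKa1-/- (adjusted p = 0.353). A fit of only the groups compared called Pdk1 lower in WT (adjusted p = 0.0268). In WT, Pdk2 rose from 15.4, 21.8 and 16.3 FPKM to 27.3, 33.8 and 32.6 (log2 0.78, SE 0.17, adjusted p = 0.000726). Pdk3 rose from 11.5, 9.23 and 8.58 FPKM to 18.4, 15.5 and 15.6 (log2 0.70, SE 0.18, adjusted p = 0.00428). Labelled AMPKa1-/-, the log2 changes were 0.77 for Pdk2 (SE 0.17, adjusted p = 0.000843), 0.79 for Pdk3 (SE 0.18, adjusted p = 0.00145) and -0.55 for Pdp1 (SE 0.20, adjusted p = 0.0431). The last of these was not called without any one of DAMPs replicates 2 and 3 and DAMPs + Dex replicates 2 and 3, with adjusted p of 0.116 to 0.133 for Pdp1, nor with a pseudocount of 0.1 (0.0613), without the filter (0.0888) or without moderation (0.0529).

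**Figure D4:**
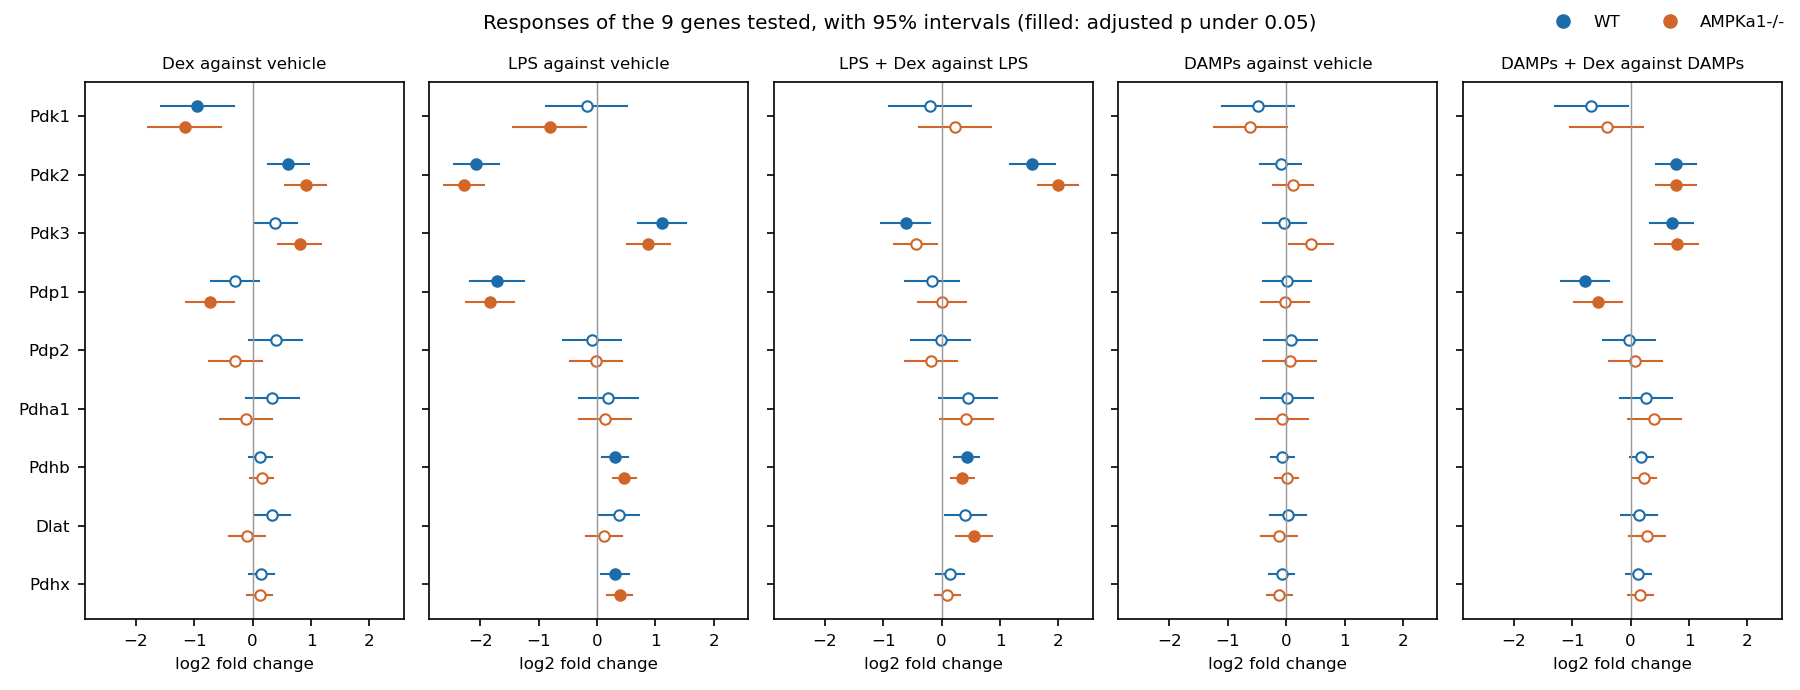
Log2 fold change (x axis) of the 9 genes tested in the 5 treatment contrasts, with 95% intervals, WT in blue and libraries labelled AMPKa1-/- in orange. Filled points passed an adjusted p under 0.05: Pdk2 falls with LPS and rises in each contrast that adds Dex, Pdk3 rises with LPS, and no point is filled for DAMPs against vehicle.

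Whether Dex acted on the members differently in the presence of LPS was tested as a difference of changes. In WT, 2 of 9 members differed between Dex on LPS and Dex alone, against 32% of all genes. The change of Pdk2 was larger by 0.94 on LPS (SE 0.25, adjusted p = 0.00530) and that of Pdk3 lower by a log2 value of -1.01 (SE 0.27, adjusted p = 0.00553). Pdk3 thus had a change of 0.39 with Dex alone, which was not called (adjusted p = 0.103), and of -0.62 on LPS. Labelled AMPKa1-/-, 4 of 9 members differed, against 28.4% of all genes: Pdk2 (1.09, adjusted p = 0.000749), Pdk3 (-1.25, adjusted p = 0.000406), Pdk1 (1.39, adjusted p = 0.0150) and Dlat (0.64, adjusted p = 0.0245). With the replicate block, Pdp1 was called there as well (0.73, adjusted p = 0.0347 against 0.0536 without the block), and so it was without LPS + Dex replicate 3 (0.98, adjusted p = 0.00714). Dex on DAMPs against Dex alone called 0 of 9 in both genotypes, against 0.00881% and 0.308% of all genes, and at an unadjusted p under 0.05 limma gave 1124 and 1167 genes.

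The genotypes were compared within each treatment and by the difference of their responses. With vehicle, LPS, LPS + Dex, DAMPs and DAMPs + Dex, 0 of 9 members were called, against 0.432%, 0.766%, 0.669%, 0.731% and 1.06% of all genes, and limma gave 700, 1300, 921, 860 and 1067 genes at an unadjusted p under 0.05. With Dex alone, 3 of 9 were called, where 26.5% of all genes were called. Pdk3 was higher at 16.5, 22.7 and 20.9 FPKM labelled AMPKa1-/- against 13.8, 10.7 and 16.0 in WT (log2 0.54, SE 0.18, adjusted p = 0.0315). Pdp1 was lower at 7.49, 10.05 and 11.1 against 15.7, 14.5 and 12.7 FPKM (log2 -0.55, SE 0.20, adjusted p = 0.0457). Pdp2 was lower at 1.36, 1.45 and 2.13 against 4.09, 4.30 and 2.85 FPKM (log2 -0.84, SE 0.22, adjusted p = 0.0116).

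Pdk3 was also higher labelled AMPKa1-/- without overlap in both DAMPs groups, although it was not called there. With DAMPs + Dex it was at 29.8, 28.4 and 22.5 against 18.4, 15.5 and 15.6 FPKM (log2 0.67, 95% interval 0.30 to 1.04, adjusted p = 0.0722). With DAMPs it was at 14.9, 14.2 and 16.0 against 11.5, 9.23 and 8.58 FPKM (log2 0.58, 0.21 to 0.95, adjusted p = 0.192). A genotype difference of Pdk3 is therefore not shown to be particular to Dex.

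The calls of the 3 genotype differences with Dex were lost when single libraries were left out, and that of Pdp1 also under another scaling. With libraries centred on one median, Pdp1 was not called (log2 -0.39, adjusted p = 0.0718), Pdk3 and Pdp2 were (adjusted p = 0.0104 and 0.00995), and Pdk2 was as well (0.51, adjusted p = 0.0456). None of the 3 was called without Dex replicate 2 labelled AMPKa1-/- (adjusted p = 0.170 for Pdk3, 0.125 for Pdp1 and 0.0758 for Pdp2) or without WT Dex replicate 2 (0.185, 0.141 and 0.0813). The log2 differences kept their direction. They were 0.45 for Pdk3, -0.59 for Pdp1 and -0.79 for Pdp2 without the former library, and 0.40, -0.53 and -0.75 without the latter. No difference between the responses themselves was called: for each of the 5 treatment contrasts, 0 members and 0% of all genes were called for a difference between genotypes, and limma gave 2441, 514, 311, 66 and 234 genes at an unadjusted p under 0.05 for Dex, LPS, LPS + Dex against LPS, DAMPs, and DAMPs + Dex against DAMPs. The interval for Pdk2 in LPS + Dex against LPS was -0.07 to 0.96, which holds both 0 and a rise that is larger by 0.96 labelled AMPKa1-/-. The fibroblast list (Col1a1, Col1a2, Dcn and Pdgfra) summed to 10.8, 14.0 and 21.9 FPKM in WT Dex and to 3.76, 3.98 and 2.52 FPKM in Dex labelled AMPKa1-/-. That sum was also higher in WT with DAMPs + Dex (8.29, 12.8 and 17.3 against 3.80, 3.46 and 1.48 FPKM). With LPS it was 9.14 and 8.74 against 3.23, 5.38 and 4.06 FPKM. In the remaining treatments the genotypes overlapped. The neutrophil list, given below, summed to 4.75, 1.74 and 4.80 FPKM in WT Dex and to 28.7, 19.8 and 12.7 FPKM in Dex labelled AMPKa1-/-. The part of either list in the genotype comparison was not tested.

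Other cells that a marrow culture can hold were looked for by their markers. The neutrophil list (Ly6g, Mpo, Elane, Ngp, Camp and S100a8) summed to 160 and 123 FPKM in WT LPS and to 651, 511 and 1199 FPKM in WT LPS + Dex, against 17.4, 1.44 and 5.54 in WT vehicle. S100a8, its most abundant gene, gave most of the LPS + Dex sum, and Camp, an antimicrobial peptide gene, rose with LPS (log2 6.30, adjusted p = 4.05e-15). The defining markers Ly6g and Mpo reached at most 0.200 and 0.218 FPKM. In the list, 3 of the 6 genes were under 1 FPKM in every library, and the other 3 had a mean of at least 1 FPKM over all libraries. The part of these genes in the changes of the members was not tested. The dendritic cell, T and B cell, mast cell and erythroid lists summed to at most 1.69, 0.840, 1.53 and 0.260 FPKM. Of the 3 genes of the fibroblast list tested with LPS in WT, only Dcn was called, and it rose (log2 1.82, adjusted p = 8.97e-07). The median log2 change of these 3 genes was 0.02. The fibroblast sum did not rise in WT, at 15.8, 1.39 and 8.95 FPKM in vehicle and 9.14 and 8.74 FPKM in LPS. Labelled AMPKa1-/-, each LPS sum lay above each vehicle sum. In the macrophage list, 2 of 7 genes rose and 4 fell with LPS in WT: Adgre1 (log2 0.92) and Fcgr1 (2.01) rose, Cd68 (-3.02), Csf1r (-1.34), Lyz2 (-0.61) and Mertk (-0.56) fell, and Itgam (0.27) was not called. In bulk RNA, fewer cells of a type and less RNA per cell cannot be told apart.

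Around the complex, the partner genes of PDC were taken from lists. Beside the list counts stand those of all genes: with LPS in WT 19.9% of all genes rose and 35.8% fell, and with LPS + Dex against LPS 16.6% rose and 17.5% fell. Of 7 genes for the E3 subunit, the lipoyl cofactor and the phosphatase regulator, 1 rose in WT LPS + Dex against LPS, 2 rose in WT LPS against vehicle and none fell in either. The median over this list was 0.07 with LPS, beside -0.19 over all genes. Dld, the E3 subunit that PDC shares with other dehydrogenases, was at 53.7 and 49.7 FPKM in WT LPS and 91.9, 76.8 and 72.1 in LPS + Dex, without overlap (log2 0.62, SE 0.14, adjusted p = 0.000995). It rose by 0.51 labelled AMPKa1-/- (SE 0.13, adjusted p = 0.00176). Dlat, not called in WT, had nearly the same WT change (0.41) as Pdhb (0.43). Mecr, of mitochondrial fatty acid synthesis, which feeds lipoate synthesis, rose with LPS in WT (0.85, adjusted p = 0.000105), as did Lipt2, a lipoyl transferase (0.76, adjusted p = 0.00198). Pdpr, the regulatory subunit of the phosphatase, varied too much for a statement, at 7.17, 3.57 and 7.05 FPKM in WT vehicle and 10.47, 3.96 and 1.07 in WT LPS + Dex.

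Thiamine is the precursor of the cofactor of E1. The genes listed for thiamine supply include Slc19a1, which is named for folate transport, and a thiamine carrier, Slc19a2. Slc19a1 (log2 -1.14, adjusted p = 2.69e-07) and Slc19a2 (-0.68, adjusted p = 0.00220) fell with LPS against vehicle in WT. Transport of thiamine was not measured, and a change of Slc19a1 does not show one of thiamine supply. With Dex alone in WT, Slc19a2 rose (0.47, adjusted p = 0.0279). With Dex on LPS, Slc19a1 rose (0.76, adjusted p = 0.000215), and Slc19a2 changed by 0.04 and was not called (adjusted p = 0.890).

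Genes for pyruvate entry and its other fates moved in both directions. Of 13 tested, 6 rose and 4 fell with LPS in WT, and 4 rose and 3 fell with LPS + Dex against LPS. Their median log2 changes were 0.24 and 0.06, beside -0.19 and -0.03 over all genes. Ldhb, the lactate dehydrogenase subunit of oxidative tissues, was at 35.7, 31.1 and 30.3 FPKM in WT vehicle, 2.27 and 3.32 in LPS and 18.5, 22.4 and 21.0 in LPS + Dex. It fell 8.85-fold (adjusted p = 5.57e-14) and then rose 5.75-fold against LPS (adjusted p = 1.91e-11), the same order of groups as Pdk2. Slc16a3, a lactate exporter, rose 5.45-fold with LPS (adjusted p = 3.89e-08) and was lower with LPS + Dex than with LPS (log2 -0.75, adjusted p = 0.0469). Gpt2, a mitochondrial alanine transaminase, rose 3.72-fold with LPS + Dex against LPS (adjusted p = 0.000141). The following were picked after their values were seen. Pcx, pyruvate carboxylase, which takes pyruvate to oxaloacetate past PDC, was at 1.44 and 1.55 FPKM in WT LPS and 7.46, 4.75 and 11.7 in LPS + Dex, a 3.42-fold rise (adjusted p = 1.26e-07). Mpc2, a subunit of the mitochondrial pyruvate carrier, was at 17.8 and 22.8 FPKM in WT LPS and 34.4, 42.4 and 44.0 in LPS + Dex (log2 0.96, adjusted p = 1.28e-06), while its partner Mpc1 changed by -0.19 and was not called.

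**Figure D5:**
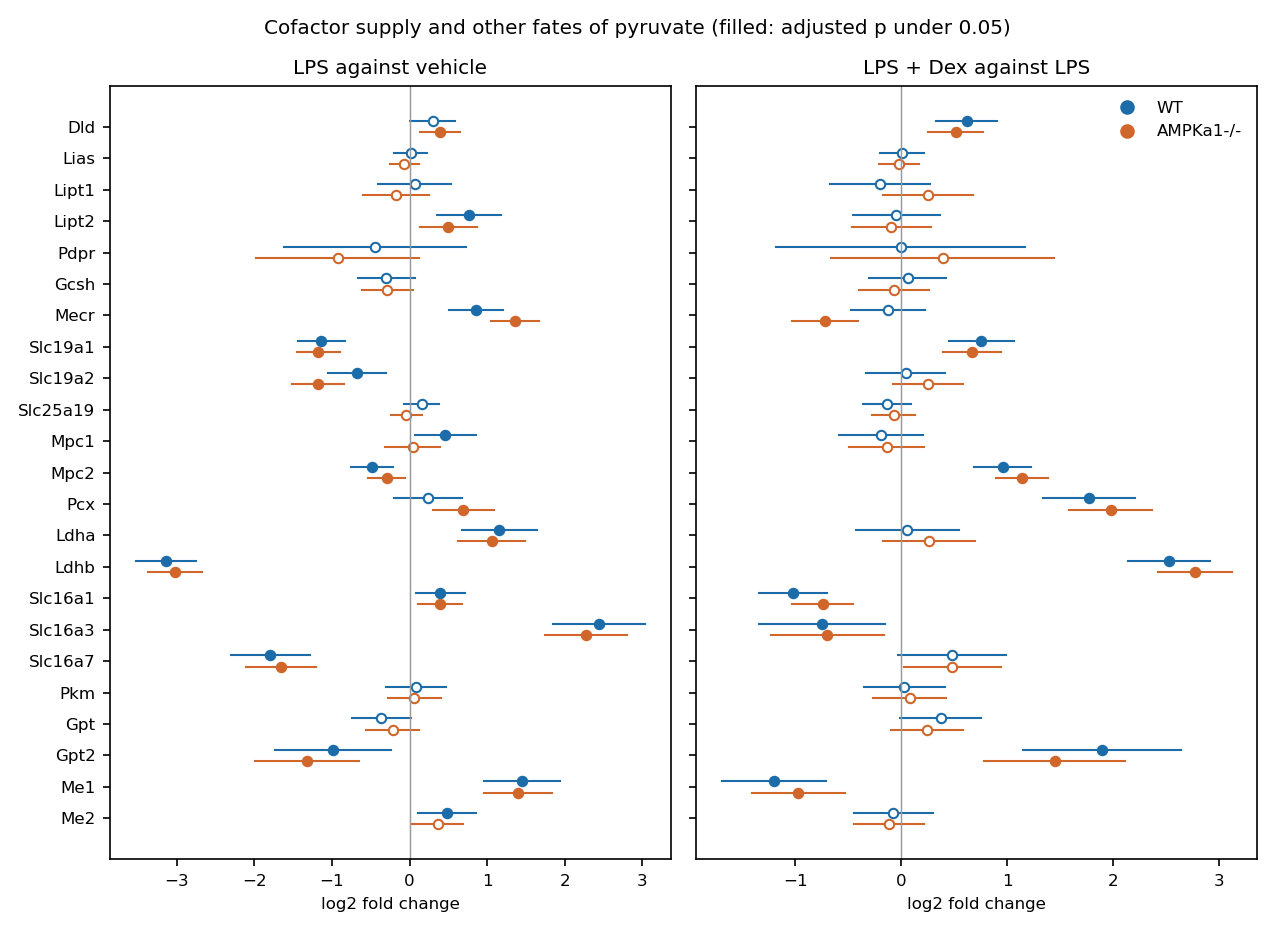
Log2 fold change (x axes, which differ in scale) with 95% intervals of genes for the E3 subunit, lipoyl cofactor and phosphatase regulator, for thiamine supply, and for pyruvate entry and other fates, WT in blue and libraries labelled AMPKa1-/- in orange. Filled points passed an adjusted p under 0.05: Slc19a1 and Ldhb fall with LPS, and Dld, Mpc2, Pcx and Ldhb rise with LPS + Dex against LPS in both genotypes.

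Related dehydrogenases, regulators and genes around acetyl-CoA use were listed in the same way. Of 7 tested genes of the branched-chain and 2-oxoglutarate dehydrogenases, 3 rose and 2 fell with LPS in WT: Bckdhb rose 6.66-fold, Bckdha fell 2.95-fold and Ogdh rose 1.45-fold (adjusted p = 1.27e-07, 4.19e-09 and 0.00109). Of 8 tested regulators known to act on Pdk genes, 2 rose and 5 fell with LPS in WT (median log2 -0.63, beside -0.19 over all genes). Hif1a rose 5.57-fold with LPS (adjusted p = 1.64e-09) and was lower with LPS + Dex than with LPS (log2 -1.07, adjusted p = 0.00106). Pparg fell 22.3-fold (adjusted p = 4.05e-15) and Epas1 3.05-fold (adjusted p = 0.000479). Of 6 genes listed around acetyl-CoA use, 4 rose and 1 fell with LPS in WT (median log2 0.61), among them Acaca (log2 1.5), Slc25a1 (1.05) and Acly (0.72), which make or export the precursors of fatty acids. With Dex on LPS, 1 of these 6 was called in WT and it rose.

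Genes whose pattern was most like that of each kinase were sought over the 12 group means of log2(FPKM + 1), among 6900 genes whose group means spanned at least 1 log2 unit. For Pdk2 these were Mat2b, Ndrg3 and Mapk14, with Pearson r of 0.992, 0.992 and 0.988. For Pdk3 they were Smim3, Pigl and Prkce (0.915, 0.902 and 0.855), and for Pdk1 Itpkb, Uhrf1 and Lmnb2 (0.936, 0.926 and 0.918). Groups share libraries of one design and the highest of many r values is high by selection, so these are descriptions with no p. Within groups, the deviations of the members, Ldha and Prkaa1 from their group means had r values from -0.61 (Pdk2 and Pdp1) to 0.90 (Pdp2 and Pdha1) over the 35 libraries, with 0.01 for Pdp1 and Pdhx, and each pair of values shares a library and its scaling.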

How the data were processed

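RNA was isolated with TRIzol and sequenced, and the authors deposited 1 table of FPKM values per library for 47069 Ensembl identifiers. The submitters' processing notes name TopHat2 2.0.12, Bowtie2 2.2.3, HTSeq 0.6.1 and DESeq2, with GRCm38 and mm10, without order. Symbols (46488 identifiers) and positions came from GENCODE M21 (GRCm38), and upstream sequences from RefSeq (GRCm38.p6).

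Genes with a mean of at least 1 FPKM were tested as log2(FPKM + 1) with limma 3.58.1 in R 4.3.3 (12 groups in one model over 35 libraries, empirical Bayes with trend, 2-sided, Benjamini-Hochberg at 0.05). FPKM are not counts. Divided by their steps at annotated lengths, 55.1% to 63.4% of the values under 10 fragments were whole (tolerance 0.001), too few for a count test. Replicates correlated at 0.967 to 0.993 (Pearson, log2 scale), and no libraries were duplicates. Data were simulated once per comparison, with 11354 genes. True changes of 0.5 and of 1 log2 unit were each put into 67 genes, and of 2 into 66. For LPS + Dex against LPS in WT, changes of 1 log2 unit were recovered at 71.6% and changes of 0.5 at 23.9%. Of the calls there, 3.70% were false. For Dex against vehicle labelled AMPKa1-/-, 10.1% of the simulated calls were false, and for LPS against vehicle in WT 5.71%, both above the nominal 5%. In the data, 34.1% of all genes were called in LPS + Dex against LPS in WT, far more than were changed in the simulation. The simulated rates therefore do not carry over to the calls reported. Tables and figures used Python 3.11.15, numpy 2.4.6, pandas 2.3.3, scipy 1.17.1 and matplotlib 3.10.9.

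The members, lists, motifs and tests were chosen with earlier results of these data known. The rule named all members in every comparison, but members not called are given in part, by range or as a count. From each other list the rule took up to 3 genes, those with the largest change among genes called in LPS or LPS + Dex (WT). Dld, Pdpr, Prkaa1, the Dex, LPS, sex and macrophage lists, and the 3 genes most like each kinase tested were named as well. Ldha, Saa3, Pcx, Mpc1 and Mpc2, and the abundant or defining genes of the neutrophil list, fall outside this rule and were picked after their values were seen. One listed gene is not reported here.

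Among the treatment contrasts tested with 3 pairs, same-numbered libraries deviated together (every correlation over 0.1) in 3, all labelled AMPKa1-/-: Dex and vehicle, LPS and vehicle, and LPS + Dex and LPS. Both WT pairs of LPS + Dex and LPS were also over 0.1 (0.113 and 0.429). What a replicate number stands for is not given in the sources used here. The results were recomputed with a pseudocount of 0.1, without the filter, with a mean of at least 5 FPKM, centred or quantile-normalized libraries, only the groups compared, no moderation, a replicate block, each library left out in turn and, added after the data were seen, leaving out 3 libraries that stood apart.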

Additional observations from a re-analysis of the deposited data

Results flagged for a closer look

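For 6 results, the change with Dex on LPS differed from the change with Dex alone in a test of the difference itself. In WT these were Pdk2 (log2 difference 0.94) and Pdk3 (-1.01). Labelled AMPKa1-/-, they were Pdk2 (1.09), Pdk3 (-1.25), Pdk1 (1.39) and Dlat (0.64). The differences of Pdk2 and Pdk3 were called in both genotypes under every alternative run. That of Pdk1 was not called without LPS replicate 3 (0.90) or LPS + Dex replicate 2 (1.11) labelled AMPKa1-/-, where the adjusted p was 0.0726 and 0.0632, or in a fit of only the groups compared (0.0868). That of Dlat was lost without any one of 5 libraries. With 2 or 3 libraries in a group, no outlier test was run.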

How the results depend on the processing

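Of 38 calls among 225 pairs of member and comparison, 24 were kept under every alternative. For LPS + Dex against LPS in WT (3 members called), centred libraries, quantile normalization and leaving out the 3 libraries that stood apart (LPS replicate 3 and LPS + Dex replicate 3 labelled AMPKa1-/-, WT LPS + Dex replicate 3) each called 5, and a fit of only the groups compared called 1 (Pdk2). WT LPS + Dex replicate 3 was set apart partly for its low Pdha1, so the call of Pdha1 without it follows from that choice and is no support. Without those 3 libraries, Dex on LPS against Dex alone in WT called 4 (2 as reported). It called 3, with Pdhb added, with centred libraries, with quantile normalization and without WT LPS + Dex replicate 3. One value reversed: Pdp2 in LPS against vehicle labelled AMPKa1-/- was 0.43 and called under quantile normalization. The cause was not tested. Uncalled values changed sign in 223 cases. Further calls lost to the processing included Pdhx in LPS against vehicle in WT and Pdk3 in LPS + Dex against LPS in WT in a fit of only the groups compared (adjusted p = 0.0931 and 0.0519), Pdk1 in LPS against vehicle labelled AMPKa1-/- without the filter (0.0514), with quantile normalization (0.0509) and in a fit of only the groups compared (0.113), and, for AMPKa1-/- against WT with Dex, Pdk3 without the filter (0.0576) and Pdp1 with a pseudocount of 0.1 (0.0591), without the filter (0.0854), with quantile normalization (0.0733) and without moderation (0.0566).

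Leaving out each library in turn gave 1 to 2 called members for Dex against vehicle in WT (1 without Dex replicate 1 or 3 or vehicle replicate 3), 3 to 5 for LPS against vehicle in WT (3 without LPS replicate 2 or 3 or vehicle replicate 2), 2 to 5 for LPS + Dex against LPS in WT (5 without LPS + Dex replicate 3), 0 to 3 for AMPKa1-/- against WT with Dex (0 without Dex replicate 2 of either genotype, 1 without WT Dex replicate 1), and 2 to 5 for Dex on LPS against Dex alone labelled AMPKa1-/- (2 without LPS replicate 3 or LPS + Dex replicate 2). With 1 WT LPS library left, its spread is taken from the remaining groups.

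With the replicate block, LPS + Dex against LPS called 4 members labelled AMPKa1-/- (Pdk3 added) and 3 in WT, and LPS against vehicle called 6 in WT (Dlat added, adjusted p = 0.0481). In Dex on LPS against Dex alone labelled AMPKa1-/- it called 5. It changed no other call.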
